A study of Mus musculus with 4 samples.

Results

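The glycolytic enzymes described here are 10 genes of the mouse, *Hk1*, *Hk2*, *Gpi1*, *Pfkl*, *Pfkp*, *Aldoa*, *Pgk1*, *Eno1*, *Pkm* and *Ldha*, chosen by name from the 21924 protein-coding genes of the annotation (GENCODE M21). Every peak in a gene's body or within 10 kb of one of its transcription start sites (TSSs) was assigned to that gene. Of the 25745 peaks with more signal in *Smyd1-KO* hearts (gained peaks), 24 were linked to the 10 genes, and of the 106 peaks with more signal in wild-type (WT) hearts none was. The peaks come from ATAC-seq, in which Tn5 transposase inserts sequencing adapters into open chromatin, of hearts at embryonic day 9.5. SMYD1 is a muscle-restricted enzyme that methylates histones. Embryos without a working *Smyd1* gene (*Smyd1-KO*) were compared with WT embryos in 2 libraries per genotype. Each library came from 4 pooled hearts and 40000 viable cells of all the types in the heart. The lists were made from the libraries of a genotype combined, so values are given without a spread between replicates, and no difference between genotypes was tested here.

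Glycolysis splits glucose to pyruvate in the cytosol and yields ATP without oxygen. The early embryonic heart relies on it before its mitochondria mature, and the expression of many glycolytic genes rises in low oxygen through hypoxia-inducible factors (HIFs), which bind DNA at a short core, ACGTG or GCGTG. Several steps are carried out by isozymes from separate genes, so that the ubiquitous forms and those restricted to liver, muscle, brain or testis can be set side by side. The question the study's design raises is which of these genes lie in chromatin that was more open without SMYD1.

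All 10 genes had a gained peak within 1 kb of a TSS. For *Hk1* that peak lay nearer to a TSS of the antisense gene *Hk1os*. In dissociated whole hearts, a site open in more of the cells and a site more open per cell cannot be told apart. That proportion has to be read against the list itself, because a gained peak lay in the body or within 10 kb of a TSS of 62.6% of protein-coding genes, within 3 kb of a TSS of 51.2% and within 1 kb of 48.1%. The 10 genes all have a CpG-rich TSS, defined as at least 50% GC and an observed to expected CpG ratio of at least 0.6 in the surrounding 500 bp. They also have many annotated TSSs, with a median of 10.5 against 3 for all protein-coding genes. Among the 9599 protein-coding genes with a CpG-rich TSS and at least 3 TSSs, 79.9% had a gained peak within 3 kb and 77.7% within 1 kb. Their median is 6 TSSs, below the 10.5 of the 10 genes, so they are not matched for the number of TSSs. A gained peak covered a TSS of 6 of the 10 genes (*Gpi1*, *Pfkl*, *Pfkp*, *Aldoa*, *Eno1* and *Pkm*), against 27.8% of all protein-coding genes and 47.9% of those with a CpG-rich TSS and at least 3 TSSs. The absence of a WT-enriched peak is shared with nearly all genes, since only 0.155% of protein-coding genes had one. The WT-enriched peak closest to any of the 10 genes lay 0.419 Mb from a TSS of *Ldha*. With 25745 peaks on one side and 106 on the other, a genome-wide difference between the combined libraries of the genotypes and a difference particular to a locus cannot be told apart in these files.

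**Figure D1:**
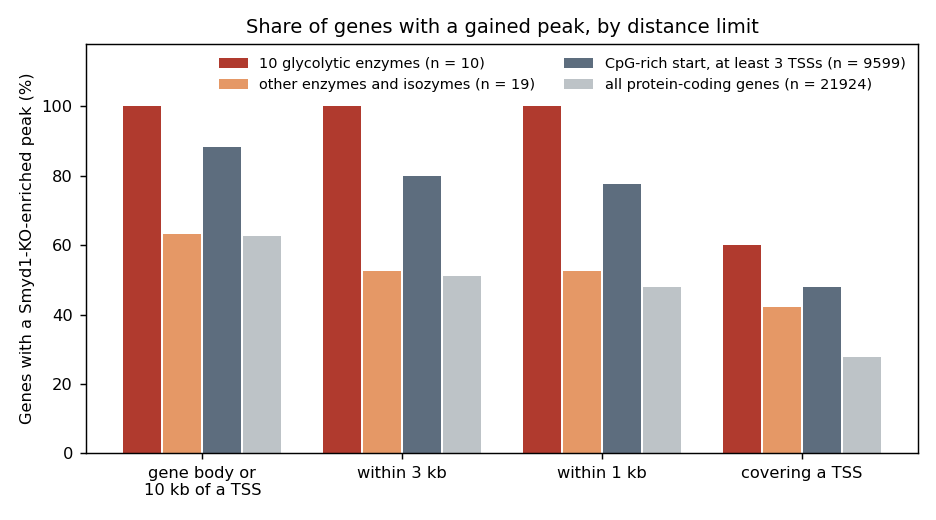
Share of genes (%) with a gained peak, by distance limit, for the 10 glycolytic enzymes, 19 other glycolytic enzymes and isozymes, protein-coding genes with a CpG-rich TSS and at least 3 TSSs, and all protein-coding genes. The 10 enzymes stand at 100% up to 1 kb, and the CpG-rich genes with at least 3 TSSs lie between them and all genes at every limit.

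The sequences below are from gained peaks within 1 kb of a TSS, chosen to show peaks that hold the HIF core and, in *Aldoa*, one that lacks it. They are given 5′ to 3′ on the strand of the gene from the mm10 genome, with each ACGTG or GCGTG on either strand in capitals and untranslated sequence left out. *Hk2* is chr6:82774478-82774626, *Pfkl* is the downstream peak chr10:78009274-78009422, *Pgk1* is chrX:106186897-106187045 and *Ldha* is chr7:46845638-46845786, all whole peaks. *Pfkp* is the part chr13:6648778-6648871 and *Aldoa* the part chr7:126799255-126799373 of their peaks.

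Hk2: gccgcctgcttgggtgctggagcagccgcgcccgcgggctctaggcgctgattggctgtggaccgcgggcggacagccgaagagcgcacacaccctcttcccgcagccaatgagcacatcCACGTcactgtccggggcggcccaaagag
Pfkl: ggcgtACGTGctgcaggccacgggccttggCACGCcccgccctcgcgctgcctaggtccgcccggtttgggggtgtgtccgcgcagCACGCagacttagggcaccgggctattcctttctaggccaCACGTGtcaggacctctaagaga
Pfkp: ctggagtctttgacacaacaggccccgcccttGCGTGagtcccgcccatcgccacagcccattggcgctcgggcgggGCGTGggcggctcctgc
Pgk1: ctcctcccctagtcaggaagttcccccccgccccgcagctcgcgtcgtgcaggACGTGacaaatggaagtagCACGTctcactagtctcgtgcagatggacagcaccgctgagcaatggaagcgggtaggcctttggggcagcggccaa
Ldha: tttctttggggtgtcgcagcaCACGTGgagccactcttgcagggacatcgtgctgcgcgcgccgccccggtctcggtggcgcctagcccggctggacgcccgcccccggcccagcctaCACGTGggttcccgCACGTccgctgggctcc
Aldoa: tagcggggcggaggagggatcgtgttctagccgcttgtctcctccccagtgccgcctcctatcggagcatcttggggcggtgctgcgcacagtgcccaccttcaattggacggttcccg

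The stretch of *Aldoa* holds no capital letters, while those of *Ldha* and *Pfkl* hold several. In *Ldha*, the CACGTG palindrome (an E-box, which contains ACGTG on both strands) occurs 2 times.

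The score of a peak is its tag signal in the combined *Smyd1-KO* libraries, given in tags in steps of 0.5, so that it is not a whole count. It describes how open the peak was in the *Smyd1-KO* hearts and not how much it gained, because the WT signal is not in the list. All peaks have the same width, so scores of different genes are on the same length. By the strongest peak within 3 kb of a TSS, the order ran from *Eno1* with 1556.5 tags through *Aldoa* (1124), *Pkm* (1049.5), *Hk1* (974.5), *Hk2* (959), *Pfkl* and *Pgk1* (both 674), *Gpi1* (654.5) and *Pfkp* (581.5) to *Ldha* with 418.5 tags. The highest was 3.72 times the lowest. Taking each score as a Poisson count, the 95% interval was 1480.1 to 1636 tags for *Eno1* and 379 to 461 for *Ldha*, and these intervals cover counting error only. Neighbours whose intervals did not overlap were *Eno1* and *Aldoa*, *Hk2* and *Pfkl*, and *Pfkp* and *Ldha*. All other neighbours in the order overlapped, which joins *Aldoa*, *Pkm*, *Hk1* and *Hk2* in 1 run and *Pfkl*, *Pgk1*, *Gpi1* and *Pfkp* in another. Within the first run, *Aldoa* (1059 to 1192) overlapped neither *Hk1* (914 to 1038) nor *Hk2* (899 to 1022). What a step of 0.5 stands for is not stated, and with each step counted as 1 the intervals are narrower and those of *Gpi1* (620 to 691) and *Pfkp* (549 to 616) no longer overlap.

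The median of these 10 scores was 816.5 tags, against 460.5 over the 11222 protein-coding genes with a gained peak within 3 kb and 508.5 over the 7670 of them with a CpG-rich TSS and at least 3 TSSs. All but *Ldha*, that is 9 genes, lay above both medians, and 5 (*Eno1*, *Aldoa*, *Pkm*, *Hk1* and *Hk2*) lay above the upper quartile of all protein-coding genes, 693 tags. Among those 11222 genes *Eno1* ranked 40, within the top 0.356%. *Aldoa* ranked 512, *Pkm* 716, *Hk1* 984 and *Hk2* 1036. *Ldha* ranked 6324, below the middle of the genes with such a peak.

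**Figure D2:**
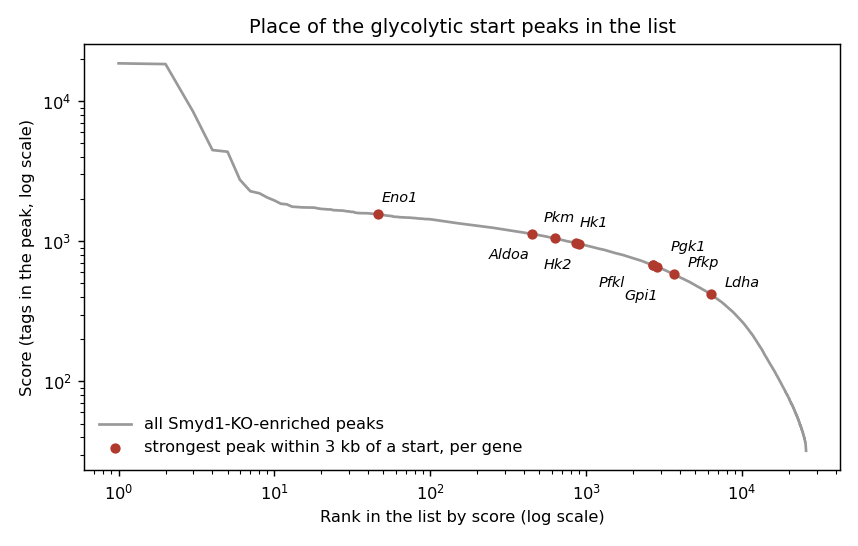
Score (tags, log scale) against rank (log scale) of all 25745 gained peaks (line), with the strongest peak within 3 kb of a TSS of each of the 10 genes (points). *Eno1* stands alone at rank 46, 4 genes lie at ranks 451 to 903, and *Ldha* is the lowest at rank 6267.

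Hexokinases phosphorylate glucose on entry into the cell. *Hk1* (chr10:62268855-62379908, minus strand) encodes the widely expressed form. Its strongest peak (chr10:62340197-62340345, 974.5 tags, rank 861 of the list) did not lie at the 5′-most TSS but at an internal one, 197 bp downstream of the TSS of Hk1-202, in untranslated exon. It also covered a TSS of the antisense RNA gene *Hk1os*, and ATAC-seq carries no strand, so the signal cannot be assigned to either gene. The gained peak closest to the TSS of Hk1-203, the 5′ end of the gene, lay 31114 bp upstream of it, in *Hkdc1*, and the closest peak linked to *Hk1* was 39563 bp away. The other *Hk1* peak (chr10:62287576-62287724, 59.5 tags, rank 21967) was intronic and was the weakest of the 24.

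*Hk2* (chr6:82725025-82774454, minus strand) encodes the insulin-responsive hexokinase of muscle and of rapidly growing cells. Its peak upstream of the TSS of Hk2-201, printed above, held 1 ACGTG centred 50 bp upstream of that TSS and 2 CCAAT boxes. An intronic peak (chr6:82763981-82764129, 259 tags, rank 10212) lay 8859 bp from the nearest *Hk2* TSS and 153 bp from that of the antisense gene *Gm17034*. Another (chr6:82723512-82723660, 187 tags, rank 12593) lay beyond the 3′ end of the gene, with no other gene's TSS within 10 kb.

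*Gpi1* (chr7:34201330-34230336, minus strand) encodes phosphoglucose isomerase, which converts glucose 6-phosphate to fructose 6-phosphate. A peak of 654.5 tags (chr7:34230219-34230367, rank 2845) covered its TSS. It was the only gene of the 10 whose strongest linked peak lay elsewhere. That peak (chr7:34234174-34234322, 812.5 tags, rank 1616) was 3838 bp upstream of the *Gpi1* TSS and 55 bp from a TSS of the gene *Gm12758*. Another peak (chr7:34196521-34196669, 287.5 tags, rank 9379) covered the TSS of *Pdcd2l* downstream. Of the 24 peaks, the one at the *Gpi1* TSS was the only one with 36-base words that recur in the genome, at 4.39% of its words.

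Phosphofructokinase makes fructose 1,6-bisphosphate, the committed step. *Pfkl* (chr10:77986947-78010083, minus strand), the liver type, had a pair of peaks of similar score at its 5′ end. One covered the TSS (chr10:78009680-78009828, 674 tags, rank 2680) and the other, printed above, lay 305 bp downstream of the nearest TSS with 639.5 tags and rank 3012. Their counting intervals overlapped (624 to 727 and 591 to 691 tags). The peak at the TSS had no HIF core, and the downstream one had ACGTG and GCGTG matches 312 to 434 bp from that TSS. A weaker peak (chr10:78018875-78019023, 153.5 tags, rank 14015) lay 8792 bp upstream. *Pfkp* (chr13:6579768-6648777, minus strand), the platelet type, had a peak over its TSSs (chr13:6648723-6648871, 581.5 tags, rank 3631) with 3 GCGTG matches, 2 of them in the printed part, and an intronic one 1396 bp downstream (chr13:6647181-6647329, 252.5 tags, rank 10403).

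*Aldoa* encodes aldolase A, which splits fructose 1,6-bisphosphate. The annotation gives this symbol to 2 adjacent transcription units with separate gene IDs, read here as 1 gene (chr7:126795234-126809108, minus strand). The peak with the second highest score of the 10 genes (chr7:126799225-126799373, 1124 tags, rank 451) covered the TSS of Aldoa-201 and lay 84 bp upstream of that of Aldoa-202. The alternative TSS of Aldoa-203, further upstream, had no peak within 1 kb and was 1074 bp from this one. A peak of 448 tags (chr7:126809158-126809306, rank 5681) stood 50 bp upstream of the TSS of Aldoa-214, the 5′ end of the second ID. Without that ID, 8407 bp would separate this peak from the nearest *Aldoa* TSS.

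*Pgk1* (chrX:106187100-106203699, plus strand) encodes phosphoglycerate kinase, the first step that returns ATP. It is X-linked and had 1 gained peak, 55 bp upstream of the TSS, with 674 tags and rank 2680. On chromosome X 35.4% of protein-coding genes had a gained peak within 3 kb of a TSS, against 51.2% over all chromosomes. Of these X-linked genes 345 of 948 have a CpG-rich TSS, against 12383 of 21924 over all chromosomes. Their median number of TSSs is 2, against 3. The *Pgk1* peak held 2 ACGTG matches facing opposite ways, centred 148 and 129 bp upstream of the TSS. The only further gained peak within 15 kb of a TSS of any of the 10 genes was also at *Pgk1* (86.5 tags, rank 18708), 14.1 kb downstream of the TSS and outside the gene. The linked peak closest to the limit on the inner side was one of *Eno1*, at 9716 bp.

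*Eno1* (chr4:150236721-150248879, plus strand) encodes enolase 1, which forms phosphoenolpyruvate. The peak over the TSS of Eno1-202 (chr4:150236933-150237081, 1556.5 tags) ranked 46 in the list. Weaker peaks flanked the gene, at 9716 bp downstream of the nearest TSS (chr4:150257281-150257429, 195 tags) and 5750 bp upstream (chr4:150230823-150230971, 112 tags), the latter nearer to the TSS of the pseudogene *Gm13094*. *Pkm* (chr9:59656368-59679375, plus strand) encodes the muscle-type pyruvate kinase, whose M1 and M2 forms arise by splicing from shared TSSs, so the peaks do not bear on which form was made. Its peak (chr9:59656313-59656461, 1049.5 tags, rank 628) covered the TSS of Pkm-201. Another (chr9:59680028-59680176, 632.5 tags, rank 3087) lay past the 3′ end over the TSS of *Gramd2*.

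*Ldha* (chr7:46841475-46855627, plus strand) encodes the lactate dehydrogenase subunit that favours the reduction of pyruvate to lactate. Its strongest peak, 53 bp upstream of the TSS of Ldha-202, had 418.5 tags and rank 6267, the lowest of the 10, and the most ACGTG matches (5, counting both strands), centred 67 to 178 bp upstream. The TSSs of Ldha-210 and Ldha-201, over 1 kb downstream of it, had no gained peak of their own. Peaks of 151.5 tags (chr7:46838249-46838397, rank 14109) and 139.5 tags (chr7:46835228-46835376, rank 14732) lay 3078 and 6099 bp upstream of the 5′-most TSS.

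Across the 10 genes, 12 of the 24 peaks lay within 1 kb of a TSS and 12 lay 1 to 10 kb away. The 12 at a TSS had a median of 674 tags (418.5 to 1556.5), against 420 for all 11331 gained peaks within 1 kb of a protein-coding TSS. The 12 further away had a median of 191 tags (59.5 to 812.5), and 2 of them cover TSSs of other protein-coding genes, *Pdcd2l* and *Gramd2*. The other 10, which lay 1 to 10 kb from any protein-coding TSS, had a median of 170.2 tags, against 123.5 for all 3974 gained peaks at such distances. Of the 12 distant peaks 10 scored below the lowest peak at a TSS, and the exceptions were the peaks by *Gm12758* and over the TSS of *Gramd2*. A TSS of another gene was nearer than the gene's own for 7 of the 24, and 6 of these were distant peaks. The seventh was the *Hk1* peak at *Hk1os*. Of those 7, the peaks at *Hk1os* and *Gm17034* lie in the bodies of *Hk1* and *Hk2*, and the other 5 lie outside the gene they were linked to, by distance alone.

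**Figure D3:**
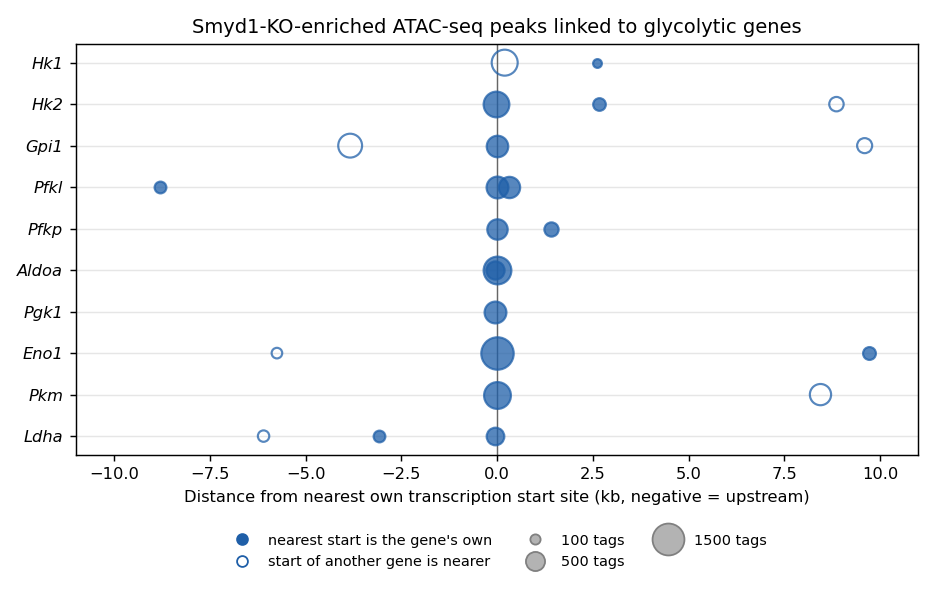
Position of the 24 gained peaks relative to the nearest TSS of their own gene (kb, negative is upstream). The area of a circle grows with the score in tags, and open circles mark the 7 peaks nearer to a TSS of another gene. The large circles lie at 0, with the exceptions of those upstream of *Gpi1* and downstream of *Pkm*.

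The peaks at a TSS were rich in GC (median 70.5%) with a CpG ratio of 0.79, close to the values of all gained peaks within 1 kb of a protein-coding TSS, 66.4% and 0.80. The distant peaks had a median GC content of 58.1% and a CpG ratio of 0.31. *Pkm* had the lowest GC content of the peaks at a TSS, 57.7%, and *Eno1* the highest, 73.8%.

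**Figure D4:**
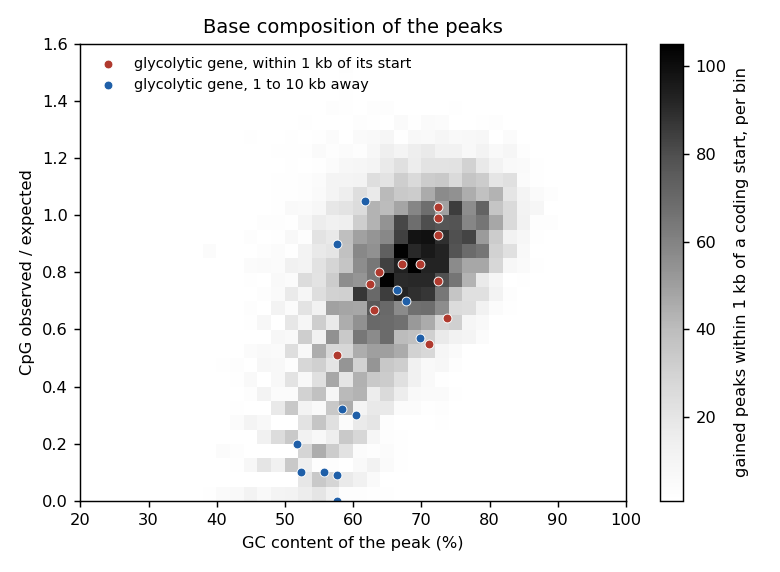
GC content (%) against the observed to expected CpG ratio of the peaks, for the 12 peaks of the 10 genes at a TSS, up to 1 kb away (red) and the 12 further away (blue). The grey shading counts the 11331 gained peaks within 1 kb of a protein-coding TSS, among which the red points lie, while most blue points fall at lower ratios.

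Short motifs were searched as exact letters on both strands in the 12 peaks at a TSS. ACGTG was found in 5 of them, 1 each of *Hk2*, *Gpi1*, *Pfkl*, *Pgk1* and *Ldha*, against 13.0% of all gained peaks within 1 kb of a protein-coding TSS and 10.1% of all gained peaks. GCGTG was found in 2, of *Pfkl* and *Pfkp*, against 33.9% of those near a TSS. With either core 6 of the 12 had a match, against 42.4%. The 4 genes with no match in a peak at a TSS were *Hk1*, *Aldoa*, *Eno1* and *Pkm*. They are 4 of the 5 genes with the highest scores, which was seen after the fact, and a relation of score to the core was not tested. The 12 distant peaks had similar counts, with ACGTG in 4 and either core in 6, against 10.1% and 28.8% of all gained peaks. *Eno1* and *Pkm* are among the genes with a match in a distant peak. The E-box CACGTG, which overlaps ACGTG, was present in *Pfkl* and *Ldha*, against 4.48%. The GC box GGGCGG was present in 11 of the 12, and missing in that of *Pkm*, against 53.8%. CCAAT was present in 6, of *Hk1*, *Hk2*, *Pfkp*, *Aldoa* (both peaks) and *Pkm*, against 25.2%. Motifs of factors active in heart muscle were searched too. The MEF2 motif TATTTATA had no match in the 12, against 0.309%. The motif of GATA factors, AGATAA, had no match either, against 2.06%. The TEAD motif GGAATG had 1 match, in *Eno1*, against 5.27%. The TATA box TATAAA, the NRF1 motif GCGCATGC, the CREB site TGACGTCA and the CTCF core CCAGGGGGC had no match either, with 1.58%, 2.64%, 1.5% and 1.3% among the peaks near a TSS. In the 12 distant peaks AGATAA and GGAATG had 1 match each, against 8.87% and 10.6% of all gained peaks, and TATTTATA had none. These counts describe letters in a window and say nothing of whether a factor was bound.

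The promoter windows of RefSeq (300 bases, from 250 before to 50 after a TSS, build GRCm38.p6) give a view that does not depend on where a peak was called. There were 17 windows for the 10 genes, and a gained peak overlapped 11 windows of 9 genes. *Hk1* was the exception, with neither of its 2 windows overlapped, since its peak lies downstream of both. ACGTG occurred in a window of 6 of the 10 genes, *Hk1*, *Hk2*, *Aldoa*, *Pgk1*, *Pkm* and *Ldha*, against 19.6% of all 32851 windows, and either core in windows of 9, all but *Gpi1*, against 43.8%. A gene with several windows has more chances of a match than a single window. *Hk1*, *Aldoa*, *Eno1* and *Pkm* thus have a core in a promoter window but none in the gained peaks at a TSS. For *Aldoa* and *Eno1* a gained peak overlaps windows that hold one.

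Of the 19 other glycolytic enzymes and isozymes, 10 had a gained peak within 3 kb of a TSS, close to the 51.2% of all protein-coding genes, and their strongest peaks had a median of 356.8 tags against 816.5 for the 10 enzymes. The highest 5 were *Gapdh* (764.5 tags) and *Pgam1* (613), the main forms of glyceraldehyde 3-phosphate dehydrogenase and phosphoglycerate mutase, then *Ldhb* (462.5), the lactate dehydrogenase subunit abundant in adult heart, the brain aldolase *Aldoc* (439.5) and *Tpi1* (436), triose phosphate isomerase. *Aldoc* and *Tpi1* have such peaks beside neighbours too, and the 439.5 tags of *Aldoc* belong to a peak over the TSS of *Pigs*, while the peak at its own TSS had 365. The muscle forms *Pfkm* and *Pgam2* stood at 277.5 and 173 tags, the neuronal enolase *Eno2* at 115.5 and *Hkdc1* at 114.

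The 9 without a gained peak within 3 kb included *Hk3*, *Gapdhs*, *Pgk2*, *Eno1b*, *Eno3*, *Pklr*, *Ldhc* and *Ldhal6b*. Among them are the liver form of pyruvate kinase and the forms of the testis. *Eno3*, the enolase of muscle, had a peak of 1013.5 tags at 8093 bp, 204 bp from the TSS of *Spag7*. None of these 9 has a CpG-rich TSS, which all 10 of the enzymes described here have, and of the 19 only 5 have one. *Ldhc*, the testis gene next to *Ldha*, had no linked peak. The counting intervals of *Ldha* and *Ldhb* overlapped, at 418.5 (379 to 461) and 462.5 tags (421 to 507), while those of *Aldoa* and *Aldoc* and of *Eno1* and *Eno2* did not.

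**Figure D5:**
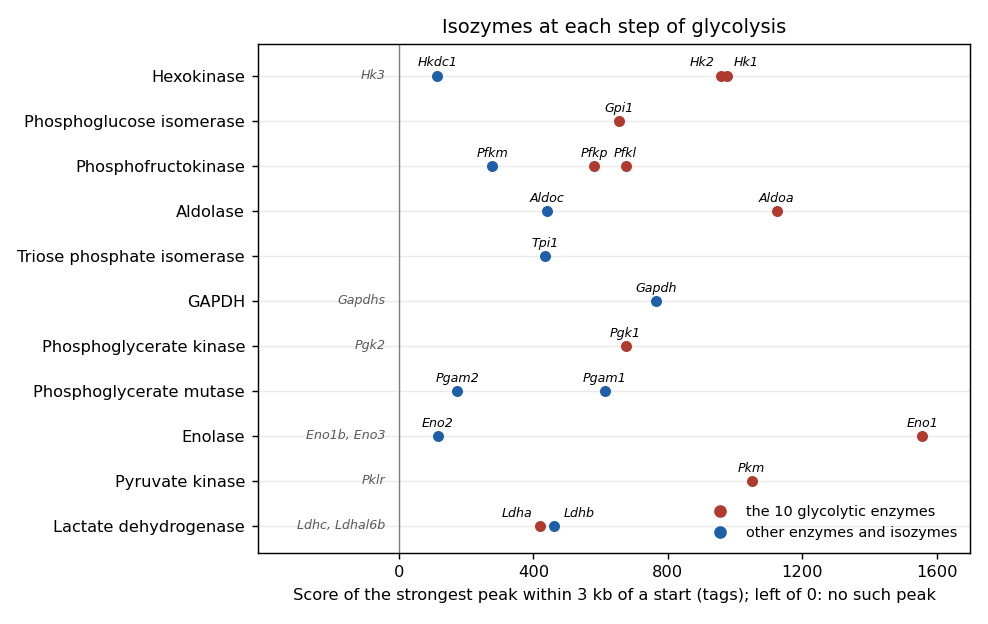
Score in tags of the strongest gained peak within 3 kb of a TSS for the enzymes and isozymes named in the text, by step of the pathway. The 10 enzymes (red) exceed the other forms of their step (blue) at every step that has both, except lactate dehydrogenase, and genes with no such peak are named left of 0.

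Of 9 genes that regulate or bypass glycolysis, 5 had a gained peak within 3 kb of a TSS, against 51.2% of all protein-coding genes. These were the 4 genes for the bifunctional enzymes that set fructose 2,6-bisphosphate, the activator of phosphofructokinase, and *Bpgm*, the gene for bisphosphoglycerate mutase. *Pfkfb4* stood at 757 tags, *Bpgm* at 590, *Pfkfb3* at 566.5, *Pfkfb2* at 399 and *Pfkfb1* at 143. The *Pfkfb1* peak also covered a TSS of the gene *Apex2*. The phosphatase gene *Tigar*, the gluconeogenic *Fbp1* and *Fbp2* and the gene *Adpgk* had no linked gained peak, although *Tigar* and *Adpgk* have CpG-rich TSSs. No gene of either list had a linked WT-enriched peak.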

How the data were processed

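Lists of differential peaks were used, one per direction. Per the study's methods, the authors aligned ATAC-seq reads to mm10 with BWA, called peaks with HOMER (4.10.3) and set a 2-fold cutoff. The headers of their peak tables name combined libraries per genotype and a Poisson cutoff. The deposited score is a signal, in tags, of the peak in the enriched genotype. All 25745 scores of the *Smyd1-KO* list are multiples of 0.5, but only 13 of 106 in the WT list, so scores were not compared between lists. Positions were read as BED and may be shifted by 1 base. The stated sequencing depth is 100000000 reads per sample, and it could not be checked in lists made from combined libraries. Distances ran from the nearest peak edge to the nearest annotated TSS in GENCODE M21 (Python 3.11.15, numpy 2.4.6, scipy 1.17.1). Gene IDs that share a symbol and chromosome counted as 1 gene. No test between genotypes was possible without values per library. Intervals are Poisson, 95%, with the score read as a count. The linking and motif code was tested on simulated data. The 10 enzymes and the lists of other enzymes were chosen with earlier results of these data known. All 10 are named with each linked peak, and of the other enzymes the 5 with the strongest peak within 3 kb and all without one. Some of the other enzymes enter the counts but are not reported here by name. The others with such a peak were named after their values were seen. Alternatives changed the transcripts, the distance, the score, repeated words, the nearest gene and the merging of peaks.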

Additional observations from a re-analysis of the deposited data

How the results depend on the processing

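The 9 counts and medians were recomputed under 7 alternatives, at most 6 for any one of them, and all 46 recomputed values stayed within 1.5 times the reported one (the median within the spread between genes). With protein-coding transcripts alone 20 linked peaks remained of 24, with peaks at or above the median score of the list (180.5 tags) 19, with peaks whose nearest TSS is the gene's own 17, and with peaks merged over gaps of up to 1 kb 23. The count of genes with a gained peak within 3 kb stayed at 10 of 10 in each, with *Hk1* held only by its peak of 59.5 tags where the nearest TSS had to be its own. The median of the strongest linked peaks fell from 885.8 to 674 tags with peaks nearest to the gene's own TSS, because the *Hk1* and *Gpi1* peaks closest to other genes dropped out. The share of all protein-coding genes within 3 kb ranged from 44.3% to 51.2%. Of the 19 other glycolytic enzymes and isozymes, the count with such a peak fell from 10 to 7 with peaks at or above the median score. All protein-coding genes stood at 45.4% under that setting. In the other alternatives the count stayed at 10. With each step of 0.5 in a score counted as 1, a choice made after seeing the data, 4 neighbouring pairs in the order of scores had separate intervals in place of 3. Merging was not run for WT-enriched peaks, the distance from the centre not for peaks covering a TSS, and the repeated words not for all genes. No paired analysis was possible because the lists combine the libraries of each genotype, and for the same reason no library could be left out. The sum over combined libraries cannot show whether 1 library carries a peak, and a score does not give the size of a gain.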
